A study of Mus musculus with 2 samples.

Results

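Potassium channel genes were followed across the cell types of the mouse aorta and between wild-type mice and mice carrying a mutated matrix Gla protein (MGP). The members were all genes whose symbol starts with Kcn in the deposited gene list, which gave 99 of 32285 genes. By the GENCODE vM21 annotation, 94 of them code for proteins and 5 are antisense genes. In the cells kept for analysis, 51 members had at least 50 UMIs (unique molecular identifiers, each standing for a captured RNA molecule), 39 had fewer and 9 had 0.

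Potassium channels let potassium leave the cell and so hold the membrane potential negative. In arterial smooth muscle this limits calcium entry through voltage-gated calcium channels and lowers tone. The best known classes there are the large-conductance calcium-activated BK channel, voltage-gated Kv channels, inward rectifiers that include the ATP-sensitive channel, and tandem-pore leak channels, while endothelium relies on small- and intermediate-conductance calcium-activated channels.

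The study's title asks how mutating MGP, a secreted protein that binds bone morphogenetic proteins (BMPs), tunes cell differentiation in the aortic media. It held 2 groups of mice 1 month old, both of males and females: wild-type mice and MGP knock-in (MGP-KI) mice, with 1 library each and 1 batch label for both. For either group the adventitia was dissected away, the aorta was digested with Liberase and dead cells stained by DAPI were sorted out. Neither the altered residue nor how many mice were pooled in a library is stated in the labels. With 1 library a genotype no difference has a replicate check, so no p-value is given, and every interval (95%) covers counting error only.

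The wild-type library held 3588 kept cells with a median of 20395.5 UMIs, and the knock-in library 6089 with a median of 11650; 4 cell barcodes occurred in both. From here on, paired values give wild-type first and knock-in second. Cells were clustered without the Kcn genes, and clusters were named from marker lists. Cell numbers were 236 and 2342 for smooth muscle cell (SMC)-like, 2700 and 2922 for fibroblast-like, 351 and 292 for macrophage or monocyte-like and 64 and 45 for endothelial-like cells. A cluster led by Sncg and Timp4 expressed all 10 SMC markers, but its 10 leading genes held a pericyte marker and no SMC marker, so it was left unnamed, by a rule set after seeing the data (51 and 238 cells, 1.42% and 3.91% of each library's total). The muscarinic receptor genes Chrm3 and Chrm2 led a cluster that scored nearly alike for fibroblast and SMC markers and was left unnamed too (57 and 190 cells), as was a cluster led by cell cycle genes (121 and 60 cells). Mgp mRNA was at 4447 and 6605 counts per 1000000 UMIs (CPM) of the SMC-like cells, which does not check the genotype, since the protein is altered and not deleted.

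Levels below are CPM summed over the cells of a group, and they are compared between groups or libraries for the same gene only. Members summed to 1800.5 and 1718 CPM in SMC-like cells, 720.4 and 687 CPM in fibroblast-like cells and 419 and 386 CPM in macrophage or monocyte-like cells. On the log2 scale, knock-in over wild-type was -0.07 (-0.10 to -0.03), -0.07 (-0.09 to -0.05) and -0.12 (-0.21 to -0.02). Each of these ratios changed sign under at least 1 other way of choosing the cells. Without Kcnab1 and Kcnq1ot1, the members with the most UMIs, they were 0.15 (0.10 to 0.20), 0.03 (0.01 to 0.06) and -0.05 (-0.16 to 0.05). The summed level thus gave no stable direction. Over 7 groups, the highest level was in the same group in both libraries for 29 of the 51 members, or 56.9%, against 55.7% of all genes with at least 50 UMIs. By group these were 1 member in SMC-like cells (3.6% of all genes), 3 in fibroblast-like (5.21%), 4 in macrophage or monocyte-like (14.7%) and 7 in endothelial-like cells (10.3%). There were 5 in the Sncg Timp4 cluster (3.6%), 8 in the Chrm3 Chrm2 cluster (7.92%) and 1 in the cell cycle cluster (10.3%). Over the 4 named classes alone it was the same class for 43 of the 51 members, against 70.4% of all genes. By class these were 17 in SMC-like (14.5% of all genes), 9 in fibroblast-like (15.1%), 8 in macrophage or monocyte-like (22.4%) and 9 in endothelial-like cells (18.5%). No minimum of UMIs within the group or class was set for these ranks, so some rest on few UMIs. In endothelial-like cells Kcnj13 had 1 and 3 UMIs, and Kcnmb4 and Kcnab3 had 1 and 1 each.

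**Figure D1:**
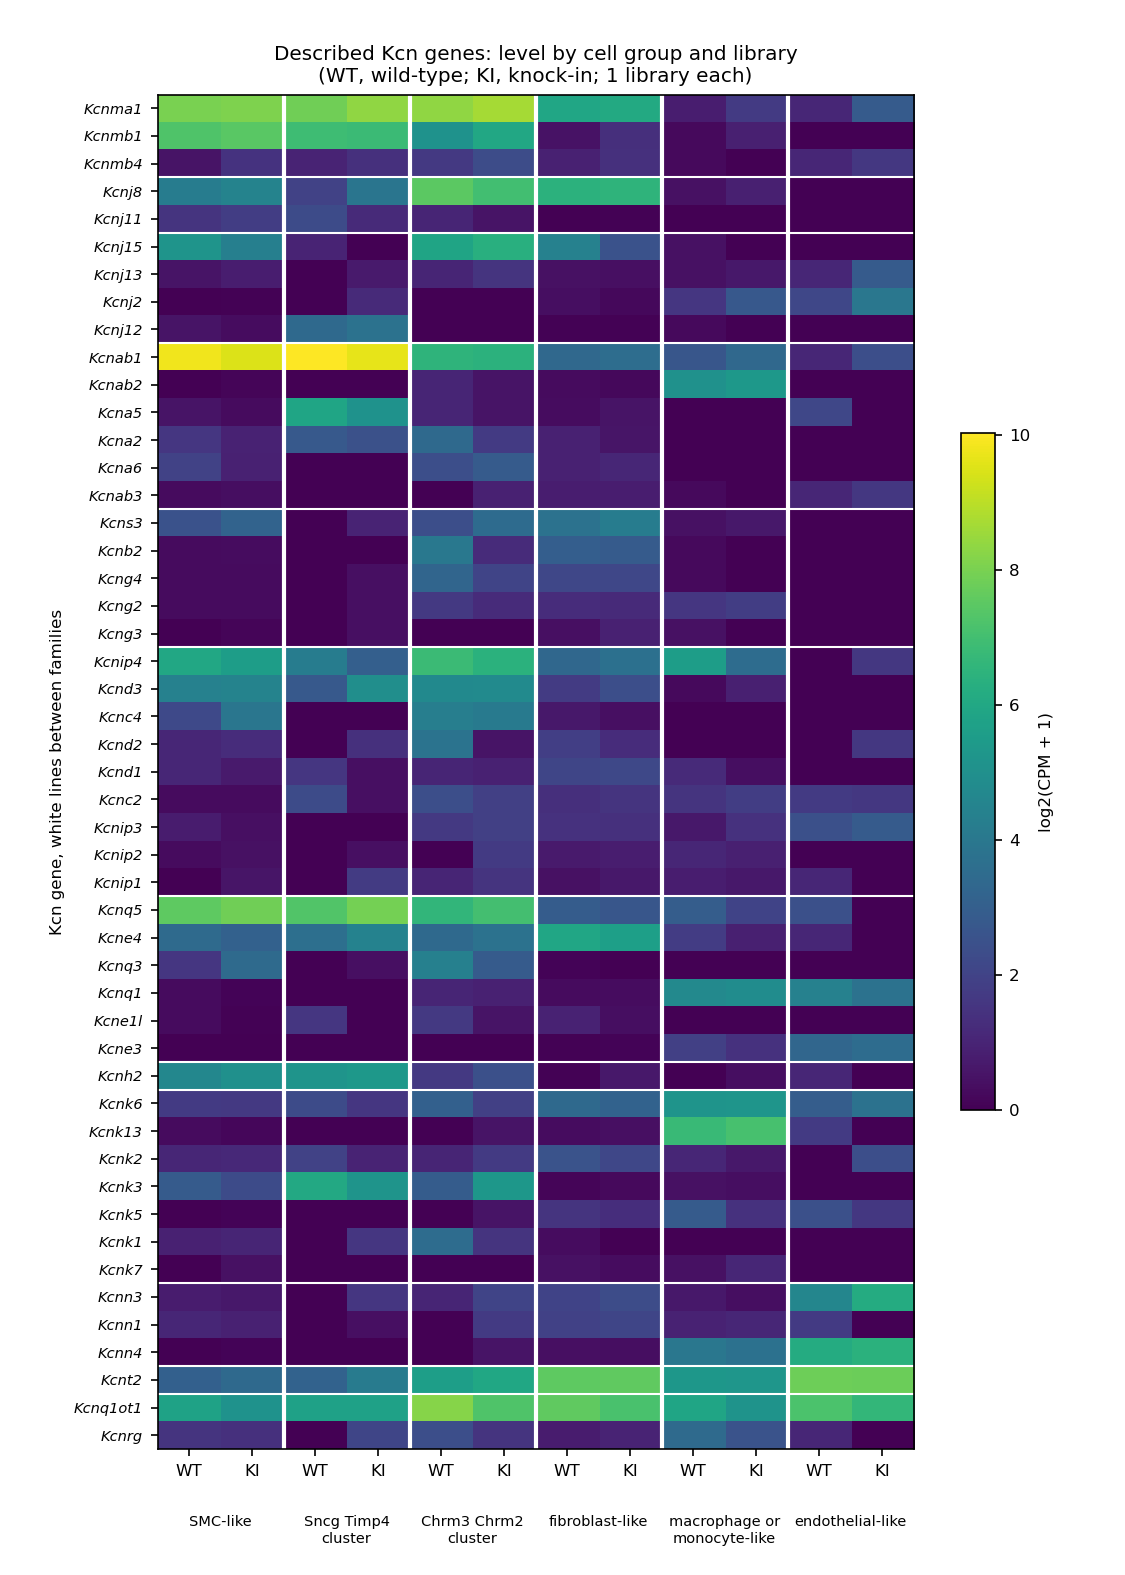
Level of the Kcn genes described here that had at least 50 UMIs (rows, grouped by family) in 6 cell groups and both libraries (columns), as log2(CPM + 1) in color. Kcnma1, Kcnmb1, Kcnab1 and Kcnq5 are bright in SMC-like cells and both unnamed clusters, Kcnj8, Kcnt2 and Kcne4 in fibroblast-like cells, Kcnk13 and Kcnab2 in macrophage or monocyte-like cells, and Kcnn4 and Kcnt2 in endothelial-like cells.

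The BK channel was read mainly from its pore gene Kcnma1 and from Kcnmb1, the beta subunit that raises calcium sensitivity in smooth muscle. Kcnma1 was at 258 and 268 CPM in SMC-like, 59.8 and 67.4 CPM in fibroblast-like, 0.741 and 2.22 CPM in macrophage or monocyte-like and 1.12 and 6.38 CPM in endothelial-like cells. Its highest level was in the Chrm3 Chrm2 cluster, at 328 and 412 CPM. Kcnmb1 was highest in SMC-like cells, at 152 and 175 CPM. Its interval overlapped that of the Sncg Timp4 cluster (118 and 112 CPM) in the wild-type library only. In fibroblast-like cells Kcnmb1 was at 0.387 and 1.56 CPM. Its 22 and 51 UMIs there were below the upper estimate of 28.0 and 104 UMIs from free RNA, so they were at background level. Kcnma1 in fibroblast-like cells stood far above such an estimate (3401 and 2203 UMIs over 83.0 and 169). In endothelial-like cells the 1 and 3 UMIs of Kcnma1 were below it (2.34 and 7.33 UMIs), so they were at background level. The Kcnma1 level in macrophage or monocyte-like cells was also near such an estimate. Thus both BK genes were read in SMC-like cells, and the pore gene alone stood above background in fibroblast-like cells. After each cell was thinned to 5000 UMIs, Kcnma1 was read in 65.2% and 68.7% of SMC-like cells and 0.590% and 0.704% of macrophage or monocyte-like cells; unthinned it was 89.4% and 88.3% and 1.14% and 2.05%. Kcnmb4, another beta subunit, had 201 UMIs in all, and Kcnmb2 and Kcnmb3 had 7 and 42. Kcnmb1 overlaps Kcnip1 on the other strand and Kcnma1 overlaps noncoding genes. Whether counting used strand is not stated, so reads of such partners cannot be told apart.

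The ATP-sensitive channel gene Kcnj8, which codes for the vascular pore, was read in fibroblast-like and not in endothelial-like cells. It was at 85.6 and 91.8 CPM in fibroblast-like and 17.7 and 21.4 CPM in SMC-like cells. Endothelial-like cells had 0 of 895079 and 0 of 470224 UMIs, which at a limit of 3 counts allows up to 3.35 and 6.38 CPM. The Chrm3 Chrm2 cluster had the highest level, 179.8 and 127 CPM. Of the 3 fibroblast-like clusters the one led by Entpd2 and Cpz was highest, at 151 and 146 CPM. Its partner Abcc9, the sulfonylurea receptor subunit, was at 145 and 192 CPM in fibroblast-like cells (log2 ratio and interval 0.40, 0.35 to 0.45) and at 121 and 151 CPM in SMC-like cells (0.32, 0.19 to 0.45). The other ATP-sensitive pore gene, Kcnj11, had 98 UMIs and was at 1.81 and 2.56 CPM in SMC-like cells. Among other inward rectifiers, Kcnj12 was highest in the Sncg Timp4 cluster (9.85 and 12.8 CPM). Kcnj2, the classical endothelial inward rectifier, was highest in endothelial-like cells (3.35 and 14.9 CPM, from 3 and 7 UMIs). Its intervals there overlapped those of macrophage or monocyte-like cells (2.04 and 5.82 CPM) in both libraries.

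Among Kv1 genes, the beta subunit gene Kcnab1 was at 886 and 727 CPM in SMC-like cells and at 1042 and 799 CPM in the Sncg Timp4 cluster, with 9.42 and 10.8 CPM in fibroblast-like cells. Kcna5, a pore known from arterial muscle, was highest in the Sncg Timp4 cluster, with 60 and 103 UMIs. It was at 59.1 and 33.9 CPM there and at 0.453 and 0.227 CPM in SMC-like cells. Macrophage or monocyte-like cells carried the related beta subunit Kcnab2, at 32.6 and 40.2 CPM, with 0 and 0.0972 CPM in SMC-like cells. Kcnb2, a Kv2 pore, and the silent subunit Kcng4, which works only together with Kv2 pores, were read in fibroblast-like cells (6.94 and 6.27 CPM, and 3.41 and 3.37 CPM). In the Chrm3 Chrm2 cluster the few Kcnb2 UMIs rested on single cells: 13 of 14 wild-type UMIs and 3 of 3 knock-in UMIs came from 1 cell each. Kcng4 had 8 and 7 UMIs there.

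Of the Kv7 family, Kcnq5 was highest in SMC-like cells and the Sncg Timp4 cluster. Kcnq5 was at 186 and 232 CPM in SMC-like and 6.54 and 5.39 CPM in fibroblast-like cells. Between SMC-like cells and the Sncg Timp4 cluster (159 and 246 CPM) the intervals overlapped in both libraries. Kcnq1 was read in macrophage or monocyte-like (25.6 and 28.0 CPM) and endothelial-like cells (20.1 and 12.8 CPM), at 0.226 and 0.0648 CPM in SMC-like cells. Kcne4, an ancillary subunit that inhibits several Kv channels, was highest in fibroblast-like cells at 60.3 and 50.03 CPM. Kcne3 was highest in endothelial-like cells (8.94 and 10.6 CPM, from 8 and 5 UMIs). Its intervals there overlapped those of the cell cycle cluster in both libraries. Kcnh2, the ERG pore, was at 23.8 and 32.0 CPM in SMC-like cells and 35.4 and 40.2 CPM in the Sncg Timp4 cluster, with 0.0527 and 0.581 CPM in fibroblast-like cells.

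Among leak channel genes, Kcnk13, known as the halothane-inhibited leak channel of macrophages and microglia, was at 111 and 137 CPM in macrophage or monocyte-like and 0.226 and 0.130 CPM in SMC-like cells. It was read in 61.0% and 61.0% of the former, and in 36.0% and 39.4% after thinning. Kcnk6 was highest in the same cells (35.2 and 36.0 CPM). Kcnk3, the acid-sensitive leak channel, was at 66.0 and 35.9 CPM in the Sncg Timp4 cluster, 6.34 and 3.92 CPM in SMC-like and 0.0879 and 0.184 CPM in fibroblast-like cells. The Sncg Timp4 cluster thus had more Kcna5, Kcnk3 and Kcnj12 per UMI than SMC-like cells. For Kcnc4 it had 0 UMIs in both libraries, and for Kcnj15 1 and 0. This contrast between clusters is a description and was not tested.

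In endothelial-like cells the small-conductance gene Kcnn3 was at 23.5 and 70.2 CPM and the intermediate-conductance gene Kcnn4 at 70.4 and 82.9 CPM, the pair that carries endothelium-dependent hyperpolarization. Kcnn4 was next highest among the named classes in macrophage or monocyte-like cells (14.6 and 12.2 CPM). Kcnt2, a sodium-activated channel, was at 221 and 219 CPM in endothelial-like, 183 and 192 CPM in fibroblast-like, 38.4 and 37.4 CPM in macrophage or monocyte-like and 7.47 and 9.79 CPM in SMC-like cells. Its intervals in endothelial-like and fibroblast-like cells overlapped in the knock-in and not in the wild-type library.

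Between genotypes, a member was compared in a class when it had at least 50 UMIs over both libraries and a mean of at least 5 CPM, and a difference of at least 1.5-fold was counted. Values in brackets are the log2 ratio of knock-in over wild-type and its interval. In SMC-like cells 18 members met the minimum. Of these, 4 were higher in the knock-in library, where 5.35% of 9770 genes were, and 3 were lower, where 5.15% were. The other 11 lay between. The median log2 ratio of the members compared was 0.18 and that of all genes tested -0.04.

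The higher members described here, Kcnq3, Kcnc4 and Kcns3, code for pores or pore partners of voltage-gated channels. Kcnq3, a Kv7 pore known from neurons, was at 2.04 and 9.95 CPM, from 9 UMIs in 7 wild-type cells and 307 UMIs in 202 knock-in cells, a log2 ratio of 2.29 (1.34 to 3.43). Kcnc4, a fast Kv3 pore, was at 3.62 and 14.3 CPM, from 16 UMIs in 9 cells and 442 UMIs in 322 cells, a log2 ratio of 1.98 (1.27 to 2.80). For both genes the knock-in library was the higher and the Poisson intervals did not overlap, but the wild-type values rest on few cells. In the Chrm3 Chrm2 cluster the order was not the same: Kcnc4 was at 18.3 and 16.3 CPM and Kcnq3 at 19.4 and 6.32 CPM, the latter from 18 and 14 UMIs. Kcns3, a silent Kv2 partner, was at 4.75 and 8.10 CPM (0.77, 0.13 to 1.49). Kcnq3 was past 1.5-fold in 13 of 13 other settings, Kcnc4 in 13 of 13 and Kcns3 in 10 of 13.

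The 3 lower members were Kcnj15, Kcnk3 and Kcnq1ot1. Kcnj15, an inward rectifier pore best known from kidney and pancreatic islets, was at 35.3 and 19.0 CPM (-0.89, -1.15 to -0.63). Kcnk3 was at 6.34 and 3.92 CPM (-0.69, -1.30 to -0.04), and in female cells alone its log2 ratio was -0.13. The noncoding Kcnq1ot1 was at 54.1 and 33.7 CPM (-0.68, -0.89 to -0.48). Among those in between, Kcnma1 had a log2 ratio of 0.06 (-0.03 to 0.15) and Kcnmb1 of 0.20 (0.09 to 0.32), so the BK genes were within 1.5-fold. Kcnab1 was at -0.28 (-0.33 to -0.23), and Kcnq5 at 0.32 (0.22 to 0.43). Kcnh2 was at 0.43 (0.14 to 0.74), and Kcnip4, a Kv4 accessory protein, at -0.42 (-0.61 to -0.23). Kcnd3 (0.12), Kcnj8 (0.27), Kcnt2 (0.39) and Kcne4 (-0.36) had intervals that include 0.

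**Figure D2:**
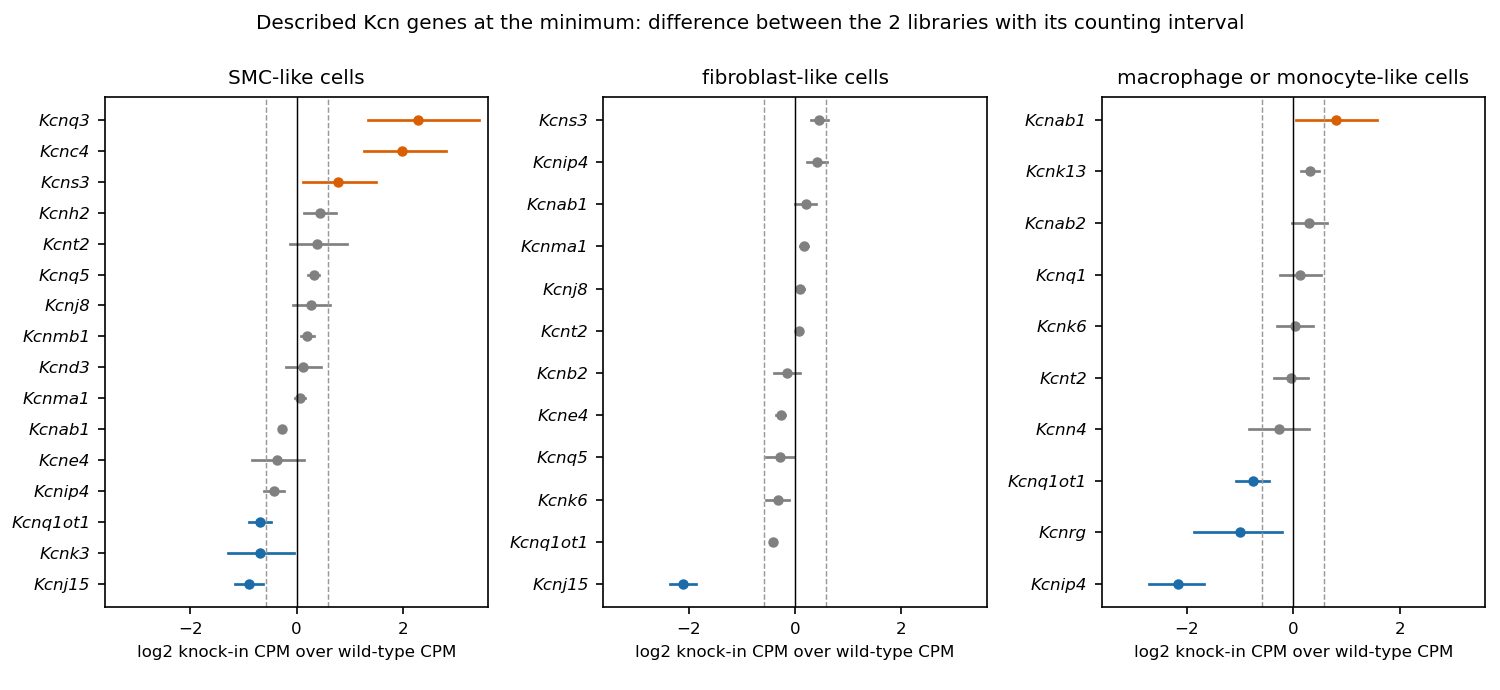
Log2 ratio of knock-in over wild-type CPM (x axis) for the Kcn genes described here at the minimum in 3 classes, with its 95% counting interval; dashed lines mark 1.5-fold, orange points are higher and blue points lower past it. Kcnq3 and Kcnc4 stand at 2.29 and 1.98 in SMC-like cells, and Kcnj15 at -0.89 there and at -2.10 in fibroblast-like cells.

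Markers of other cells moved with the libraries in these SMC-like cells. The 10 fibroblast markers, all detected in both, summed to 2908 and 1970.1 CPM and the 10 macrophage or monocyte markers to 27.6 and 18.0 CPM. Their part in the differences was not tested. In fibroblast-like cells Kcnc4 was at 0.562 and 0.337 CPM and Kcnq3 at 0.0703 and 0 CPM, below SMC-like cells of either library. Wild-type SMC-like cells were also deeper, with medians of 17322 and 12250 UMIs. In cells of 8000 to 20000 UMIs only, the log2 ratio was 1.22 for Kcnc4, 2.06 for Kcnq3 and -0.64 for Kcnj15. When each library was clustered on its own it was 1.47, 1.11 and -0.96. The SMC-like cells were not matched in that setting. The wild-type library had an SMC-like cluster of 310 cells and no unnamed cluster that scored highest for SMC markers. In the knock-in library such clusters of 236 and 119 cells stayed unnamed and were left out.

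Posterior Hox genes are active toward the lower aorta. Among SMC-like cells without a UMI of 16 posterior Hox genes, Kcnc4 was at 4.02 and 14.6 CPM, Kcnq3 at 2.01 and 10.0 CPM and Kcnj15 at 36.2 and 18.9 CPM. Such cells made up most of the class, 212 of 236 and 2236 of 2342. The lack of such a UMI does not place a cell in the upper aorta.

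In fibroblast-like cells 14 members met the minimum: 0 were higher (4.06% of 10081 genes were), 1 was lower (4.32%) and 13 lay between. The count of 0 became 3 of 14 in cells of 8000 to 20000 UMIs, where 5.37% of genes were higher, and 15 of 59 with a minimum of 10 UMIs and none on CPM, where 12.1% of 17412 genes were higher. The lower member was Kcnj15, at 20.4 and 4.74 CPM from 1160 and 155 UMIs, a log2 ratio of -2.10 (-2.36 to -1.86). It was read in 14.3% and 3.01% of cells, and in 6.29% and 1.64% after thinning. In macrophage or monocyte-like cells, which should lack it, 0.570% and 0% of cells had a UMI. Median depths were 21510 and 10856 UMIs in fibroblast-like and 15003 and 11408 in macrophage or monocyte-like cells.

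Most of the Kcnj15 UMIs came from the fibroblast-like cluster led by Fmod and Ccn5, at 34.5 and 7.04 CPM (-2.29, -2.56 to -2.03). It was at 4.22 and 2.11 CPM in the Entpd2 Cpz cluster and 2.44 and 1.18 CPM in the cluster led by Tmem100 and Ly6c1. Cells were then split by sex from the UMIs of Xist and of genes on the Y chromosome. Male cells of the Fmod Ccn5 cluster carried 46.0 and 7.02 CPM (-2.71, -3.13 to -2.32), and female cells 10.4 and 7.61 CPM (-0.45, -0.91 to 0.012). Wild-type male cells therefore stood apart from the other cells of that cluster. In SMC-like cells Kcnj15 was at 48.2 and 26.8 CPM in male and 18.6 and 14.8 CPM in female cells. The number of animals of each sex is not stated, so sex and animal cannot be told apart, and the difference between sexes was not tested. Depth moved with it too: in cells of 8000 to 20000 UMIs of that cluster the levels were 16.1 and 6.58 CPM (-1.29, -1.69 to -0.89), and above 20000 UMIs 39.7 and 13.3 CPM (-1.58, -2.15 to -1.07). Kcnj15 overlaps noncoding genes on the other strand.

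**Figure D3:**
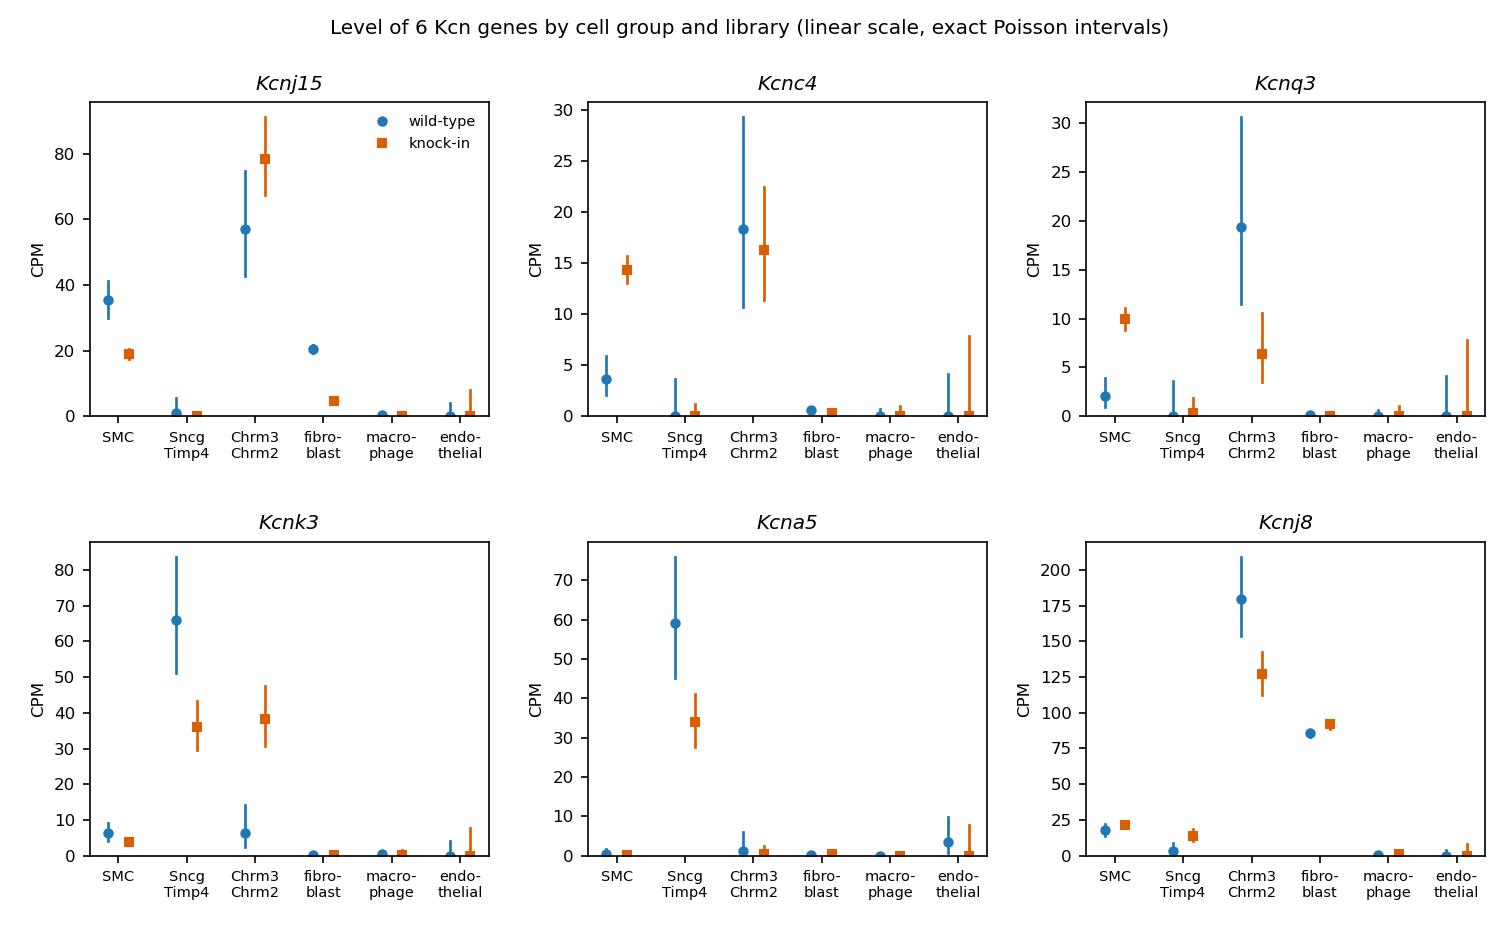
Level in CPM (y axis, linear, from 0) of 6 Kcn genes chosen after their values were seen, in 6 cell groups (x axis), for the wild-type and the knock-in library, with exact 95% Poisson intervals. Kcnj15 was lower in the knock-in library in SMC-like (35.3 and 19.0 CPM) and fibroblast-like cells (20.4 and 4.74 CPM) but not in the Chrm3 Chrm2 cluster (57.1 and 78.6 CPM).

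The bases before the annotated start of Kcnj15, Kcnc4 and Kcnmb1 are shown because Kcnj15 and Kcnc4 differed between the libraries, while Kcnmb1 was the member highest in SMC-like cells in both. Each run is the 250 bases before the start, 5′ to 3′ on the gene's strand, from RefSeq (build GRCm38.p6).
Kcnj15: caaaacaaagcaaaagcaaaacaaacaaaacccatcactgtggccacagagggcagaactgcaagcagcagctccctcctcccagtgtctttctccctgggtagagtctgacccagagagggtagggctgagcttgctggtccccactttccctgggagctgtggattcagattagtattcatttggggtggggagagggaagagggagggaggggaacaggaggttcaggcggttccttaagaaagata
Kcnc4: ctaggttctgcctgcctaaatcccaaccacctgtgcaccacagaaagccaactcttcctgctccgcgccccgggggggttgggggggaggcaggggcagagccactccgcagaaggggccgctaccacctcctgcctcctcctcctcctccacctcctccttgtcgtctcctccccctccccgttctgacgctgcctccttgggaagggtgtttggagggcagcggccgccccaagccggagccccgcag
Kcnmb1: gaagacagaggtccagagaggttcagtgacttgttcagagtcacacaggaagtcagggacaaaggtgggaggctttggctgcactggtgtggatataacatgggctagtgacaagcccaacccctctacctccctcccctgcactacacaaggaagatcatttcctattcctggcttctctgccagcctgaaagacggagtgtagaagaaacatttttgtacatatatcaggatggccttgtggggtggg
They lie at chr16:95257308-95257557 (plus strand), chr3:107458899-107459148 (minus strand) and chr11:33962763-33963012 (plus strand). Their GC contents were 53.2%, 68.0% and 50.8%. RefSeq windows were matched by symbol for 72 members (97 windows), and 3 motifs were searched on both strands. None of the 97 held a CArG box, the motif bound by serum response factor in many contractile genes, and 1.47% of the 32851 windows of all genes did. GGCGCC, found in many sites bound by BMP-activated SMAD proteins, was in 16 of the 97 windows (16.5%) and in 9.59% of all windows. The E-box CACGTG was in 6 (6.19%) and in 6.02% of all windows. No base above is in capitals, since none of the 3 motifs is in these runs.

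The other 13 members compared in fibroblast-like cells were within 1.5-fold. Kcns3 was at 12.7 and 17.4 CPM (0.45, 0.29 to 0.61) and Kcnip4 at 9.10 and 12.1 CPM (0.41, 0.22 to 0.60). Kcnab1 (0.20), Kcnma1 (0.17), Kcnj8 (0.10) and Kcnt2 (0.07) were on the same side. Kcnq1ot1 (-0.42), Kcnk6 (-0.33), Kcnq5 (-0.28), Kcne4 (-0.27) and Kcnb2 (-0.15) were on the other. With the upper estimate of free RNA subtracted, 12 members met the minimum instead of 14. That estimate made up most of the knock-in level of Kcnab1 and of Kcnq5, so no direction is read from their ratios. The median log2 ratio of the members compared was 0.09, and that of all genes -0.07. Kcnip4 had a ratio of -0.32 in female and 1.13 in male cells. The difference between sexes was not tested, and sex and animal cannot be told apart.

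The 3 fibroblast-like clusters did not give the same counts. In the Entpd2 Cpz cluster (594 and 1058 cells, median depths 12872 and 4324 UMIs) 3 of 9 members were higher, where 5.16% of genes were. Among them were Kcnma1 at 9.08 and 17.7 CPM (0.96, 0.52 to 1.41) and Kcns3 (0.74, 0.27 to 1.21). There 0 were lower, where 8.32% of genes were. Depth and a nuclear RNA moved with the libraries in this cluster: Malat1 was at 8473 and 13988 CPM (0.72), and their part was not tested. In the Tmem100 Ly6c1 cluster (722 and 405 cells) 1 of 11 was higher (4.92% of genes) and 3 were lower (7.39%). The higher one was Kcnma1, at 25.5 and 38.8 CPM (0.61, 0.39 to 0.82). The mechanically gated leak channel Kcnk2 was at 9.42 and 3.80 CPM (-1.31, -1.93 to -0.73), Kcne4 at 20.6 and 10.4 CPM (-0.99, -1.36 to -0.64) and Kcnq1ot1 at 268 and 155 CPM (-0.79, -0.88 to -0.70). In the Fmod Ccn5 cluster 0 of 14 were higher (5.67% of genes) and 1 was lower (4.76%), Kcnj15. The 10 SMC markers summed to 519 and 838 CPM in fibroblast-like cells, and their part in the Kcnma1 values was not tested. Subtracting the upper estimate of free RNA gave Kcnma1 a log2 ratio of 0.12 over all fibroblast-like cells, and 0.17 without it.

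In macrophage or monocyte-like cells 10 members met the minimum, of which 1 was higher (4.83% of 9409 genes), 3 were lower (6.71%) and 6 lay between. Kcnab1 was the higher one, at 5.38 and 9.42 CPM from 29 and 34 UMIs (0.81, 0.05 to 1.58), with an upper estimate of 7.60 and 14.1 UMIs from free RNA. Its log2 ratio was 0.54 without the richest cell of each library and -0.47 in male cells, and the 10 SMC markers summed to 96.9 and 225 CPM in these cells. Kcnip4 was at 47.5 and 10.53 CPM (-2.17, -2.70 to -1.68), but its 256 wild-type UMIs came from 13 cells, 85 of them from 1 cell, and its 38 knock-in UMIs from 11 cells. The share of cells with a Kcnip4 UMI was 3.70% and 3.77%, and at a finer cluster resolution the log2 ratio was -0.36. Kcnrg, which interferes with the assembly of Kv channels, was at 10.0 and 4.99 CPM (-1.005, -1.86 to -0.21) and overlaps Dleu2 on the other strand. Kcnq1ot1 was at 58.8 and 34.6 CPM (-0.76, -1.07 to -0.46). The members most read in this class lay between: Kcnk13 (0.31, 0.14 to 0.48), Kcnab2 (0.30, -0.03 to 0.63), Kcnq1 (0.13), Kcnk6 (0.03), Kcnt2 (-0.04) and Kcnn4 (-0.26). Markers of other cells differed between the libraries in this class. Erythroid markers (4) summed to 0.185 and 648 CPM and neutrophil markers (5) to 196 and 63.7 CPM. Cycling markers (6) summed to 349 and 232 CPM and fibroblast markers (10) to 485 and 369.9 CPM. Their part in the higher and lower members was not tested.

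In the Sncg Timp4 cluster 13 members met the minimum, with 5 higher (9.52% of 7605 genes) and 2 lower (7.47%). Kcnd3, a Kv4 pore, was at 5.91 and 29.6 CPM from 6 and 90 UMIs (2.33, 1.15 to 3.81). Kcnt2 (1.09, 0.0068 to 2.38), Kcne4 (0.84, -0.07 to 1.86) and Kcnq5 (0.63, 0.39 to 0.89) were also higher. Kcnk3 at 66.0 and 35.9 CPM (-0.88, -1.33 to -0.42) and Kcna5 at 59.1 and 33.9 CPM (-0.80, -1.27 to -0.32) were lower. Both are pores by which this cluster differed from SMC-like cells. Fibroblast markers summed to 4584 and 1908 CPM in this cluster, and their part was not tested. In fibroblast-like cells Kcna5 was at 0.246 and 0.459 CPM and Kcnk3 at 0.0879 and 0.184 CPM.

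In the Chrm3 Chrm2 cluster 2 of 13 members were higher (8.61% of 7608 genes) and 1 was lower (10.2%). Kcnk3 was at 6.46 and 38.4 CPM from 6 and 85 UMIs (2.57, 1.39 to 4.06), and Kcnmb1 at 33.4 and 62.8 CPM (0.91, 0.34 to 1.52). Kcnq1ot1 was lower, at 292 and 155 CPM (-0.91, -1.15 to -0.68). Kcnj8 was at -0.50 (-0.78 to -0.22) and Kcnma1 at 0.33 (0.14 to 0.52). SMC markers summed to 5736 and 9612 CPM and fibroblast markers to 20552 and 17540.4 CPM here, and their part in these values was not tested. In endothelial-like cells 4 members met the minimum. Kcnn3 was higher (1.58, 0.75 to 2.44, from 21 and 33 UMIs), where 7.79% of 4584 genes were. Kcnn4 (0.24), Kcnt2 (-0.014) and Kcnq1ot1 (-0.53) lay between, so 0 were lower, where 11.6% of genes were. Markers of other cells differed between the libraries here too. Lymphatic endothelial markers summed to 217 and 36.2 CPM, fibroblast markers to 1339.5 and 2461 CPM and SMC markers to 1461 and 789 CPM. Macrophage or monocyte markers summed to 84.9 and 12.8 CPM and cycling markers to 126 and 6.38 CPM, and the part of all these in the Kcnn3 difference was not tested.

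In the cell cycle cluster 2 of 9 members were higher, where 20.7% of 8997 genes were, and 6 lower, where 30.1% were. Markers of other classes differed between the libraries in its cells: fibroblast markers summed to 24241 and 7595 CPM, SMC markers to 1221 and 2272 CPM and T or NK cell markers to 26.9 and 826 CPM. Their part was not tested, and its members are not described further.

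Kcnq1ot1, an antisense RNA that is kept in the nucleus and silences an imprinted domain around Kcnq1, was below the wild-type level in all 4 named classes and in the Chrm3 Chrm2 cluster. In the Sncg Timp4 cluster it was at 52.2 and 52.4 CPM, and in the cell cycle cluster at 146 and 195 CPM. Among the fibroblast-like clusters Kcnq1ot1 was lower past 1.5-fold only in the Tmem100 Ly6c1 cluster. That cluster made up 20.1% and 6.65% of kept cells, and the part of cluster make-up in the fibroblast-like value was not tested. Of other nuclear noncoding RNAs, Malat1 had a log2 ratio of 0.07 and Neat1 of 0.37 in SMC-like cells, and 0.29 and 0.39 in fibroblast-like cells. Malat1 and Neat1 were at -0.04 and 0.16 in macrophage or monocyte-like and 0.12 and -0.07 in endothelial-like cells. They were at 0.22 and 0.89 in the Sncg Timp4 and 0.10 and 0.45 in the Chrm3 Chrm2 cluster. Mitochondrial shares of UMIs were 3.36% and 4.62% in SMC-like and 1.77% and 2.07% in fibroblast-like cells, and their part was not tested. Kcnq1ot1 overlaps Kcnq1 on the other strand, and Kcnq1 had 1 and 2 UMIs in SMC-like cells.

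Genes that work with potassium channels were taken from lists chosen with the members. Of 10 potassium pump and cotransporter genes at the minimum in SMC-like cells 1 was higher (5.35% of all genes were) and 0 were lower (5.15%). It was Atp1b2, a beta subunit of the sodium-potassium pump, at 38.0 and 67.9 CPM (0.84, 0.61 to 1.07). Of 10 genes for the calcium entry and release that opens calcium-activated channels, 1 was higher (5.35% of all genes were) and 9 lay between. The higher one was Cacna1d, an L-type calcium channel pore, at 26.5 and 41.5 CPM (0.65, 0.37 to 0.93). The main L-type pore Cacna1c was at 265 and 234 CPM (-0.18) and the ryanodine receptor Ryr2 at 163 and 162 CPM (-0.0076). In fibroblast-like cells 1 of 11 pump and cotransporter genes was lower, where 4.32% of all genes were. It was the pump regulator Fxyd6 (98.6 and 48.5 CPM, -1.02, -1.10 to -0.94). There 1 of 5 other membrane conductance genes was higher, where 4.06% of all genes were. It was the calcium-activated chloride channel Ano1 (4.50 and 11.8 CPM, 1.39, 1.16 to 1.62). The medians of these 3 lists lay between -0.12 and 0.05 in SMC-like and between -0.11 and -0.02 in fibroblast-like cells, where all genes had medians of -0.04 and -0.07.

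**Figure D4:**
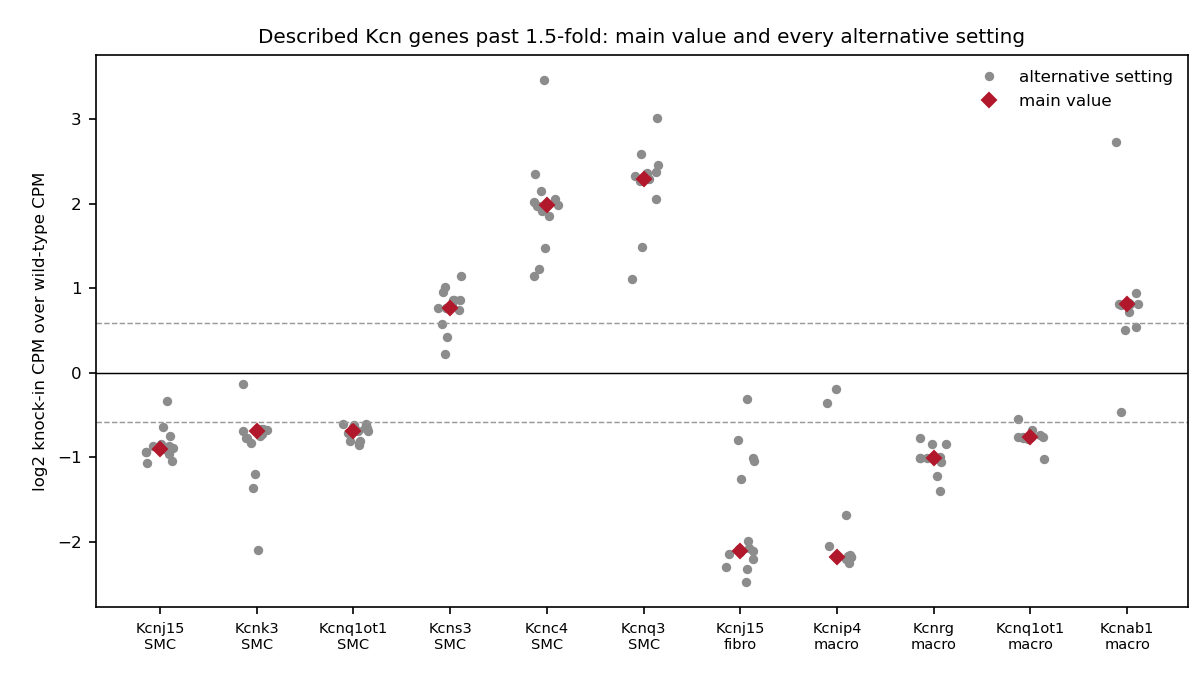
Log2 ratio of knock-in over wild-type CPM (y axis) of the described member and class pairs past 1.5-fold (x axis), as the main value and under each alternative setting; dashed lines mark 1.5-fold. Kcnc4 ranges from 1.15 to 3.46 and Kcnq3 from 1.11 to 3.02 in SMC-like cells, Kcnj15 from -2.47 to -0.30 in fibroblast-like cells, and Kcnab1 in macrophage or monocyte-like cells from -0.47 to 2.73.

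Other members also differed between female and male cells, again with animal and sex not told apart and the difference not tested. In SMC-like cells (93 and 1376 female, 123 and 688 male) Kcnc4 was at 7.19 and 15.9 CPM in female and 1.24 and 13.6 CPM in male cells. Kcnq3 was at 3.595 and 10.1 CPM in female and 1.24 and 10.0 CPM in male cells. The wild-type values rest on 12 and 3 UMIs for Kcnc4, and 6 and 3 for Kcnq3, female first. Both genes were higher in the knock-in library in either sex. Kcnq5 had a log2 ratio of -0.02 in female and 0.62 in male cells.

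The 39 members with 1 to 49 UMIs and the 9 with 0 were not compared. Those with 0 were Kcna10, Kcne2, Kcnj9, Kcnk9, Kcnk16, Kcns1, Kcns2, Kcnv1 and the noncoding Kcnmb4os1. Of those with fewer than 50, Kcna1 (48), Kcnh1 (43) and Kcnmb3 (42) had the most UMIs. Several members with at least 50 UMIs never met the minimum in a named class, and their highest named class is given only where it was the same in both libraries. Kcna2 and Kcnk1 were highest in SMC-like, Kcnn1, Kcnd1 and Kcne1l in fibroblast-like, Kcng2, Kcnk7 and Kcnip2 in macrophage or monocyte-like, and Kcnj13, Kcnip3, Kcnmb4 and Kcnab3 in endothelial-like cells. These endothelial-like levels rest on few UMIs: 1 and 3 for Kcnj13, 4 and 3 for Kcnip3, and 1 and 1 each for Kcnmb4 and Kcnab3. It was not the same for Kcna5, Kcna6, Kcnc2, Kcnd2, Kcng3, Kcnip1, Kcnk2 and Kcnk5.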

How the data were processed

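Aortic cells of 1 wild-type and 1 knock-in library were profiled by droplet RNA sequencing. The deposited matrices hold raw UMI counts of 32285 genes by barcode; Cell Ranger 7.1.0 is the tool named, per the submitters' processing notes; genome build, strand and intron settings are not given in the sources used here. Barcodes with at least 1000 UMIs, 500 genes and at most 10% mitochondrial UMIs were kept, and the top scrublet scores were removed as doublets (109 and 330 cells; the automatic threshold marked 4 and 120). Scanpy 1.11.5 clustered both libraries together without integration (2000 variable genes, 30 components, 15 neighbours, Leiden resolution 0.5), leaving out Kcn genes, Mgp, and the sex-linked, hemoglobin, ribosomal and mitochondrial genes. Clusters were named from 19 marker lists, and stayed unnamed where the second list scored over 0.65 of the best or the top 10 genes held more markers of another list; the latter rule was set after seeing the data.

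For each class the UMIs of a library were added up and scaled to CPM. Ratios carry exact binomial and levels exact Poisson intervals (95%, scipy 1.17.1), and a gene at 0 was set to 3 counts. Free RNA was estimated from barcodes under 100 UMIs, an upper estimate. Named members were those with at least 50 UMIs over all kept cells, with ratios where a class of at least 100 cells in each library held at least 50 UMIs and 5 CPM on average. Members given in smaller clusters and endothelial-like cells, in the plot of 6 genes and as promoter windows were chosen after their values were seen. Members and lists were chosen with earlier results of these data known. With 1 library a genotype no test was made; the scripts were tested on simulated data. Alternatives changed the count minimum, the scaling, doublet removal, clustering, sex, depth, free RNA, posterior Hox cells, single rich cells and the fibroblast-like clusters. Counts cover all members, but results for some of them are not reported here.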

Additional observations from a re-analysis of the deposited data

Results flagged for a closer look

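Kcnk3, the acid-sensitive leak channel, did not go the same way in all groups of cells. Its log2 ratio of knock-in over wild-type was 2.57 in the Chrm3 Chrm2 cluster, -0.69 in SMC-like cells and -0.88 in the Sncg Timp4 cluster. The difference between these groups was not tested, since each genotype has 1 library, and the wild-type value in the Chrm3 Chrm2 cluster rests on 6 UMIs.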

How the results depend on the processing

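No paired analysis was possible because each genotype has 1 library, and for the same reason no replicate could be left out. With a minimum of 10 UMIs and none on CPM, the members counted as higher and lower were 9 and 9 of 40 in SMC-like (12.4% and 11.7% of all genes compared), 15 and 10 of 59 in fibroblast-like (12.1% and 10.9%) and 3 and 7 of 19 in macrophage or monocyte-like cells (8.21% and 12.5%). In male cells 7 of 18 were higher in the SMC-like class (7.71% of genes). In fibroblast-like cells 14 members were compared, 12 with free RNA subtracted, 9 in the Entpd2 Cpz and 11 in the Tmem100 Ly6c1 cluster. The count of higher members was 1 at resolution 1.0, 2 with each library clustered alone, 3 at 8000 to 20000 UMIs, 2 in male cells (4.55%, 5.04%, 5.37% and 5.07% of genes), 3 in the Entpd2 Cpz and 1 in the Tmem100 Ly6c1 cluster (5.16% and 4.92%). The count of lower members there was 2 without doublet removal, with each library clustered alone, at 8000 to 20000 UMIs, in male cells and without the richest cell (4.47%, 3.65%, 4.03%, 4.76% and 4.43% of genes), and 0 and 3 in the Entpd2 Cpz and Tmem100 Ly6c1 clusters (8.32% and 7.39%). In macrophage or monocyte-like cells the count of higher members was 4 of 14 without doublet removal (6.87% of genes), 2 of 10 at resolution 1.0 (5.27%), 0 of 9 with free RNA subtracted (4.78%) and 0 of 10 without the richest cell (4.80%). The summed level in SMC-like cells had a log2 ratio of 0.019 at 8000 to 20000 UMIs, 0.075 in male and -0.15 in female cells. In fibroblast-like cells it was -0.042 without mitochondrial and ribosomal genes, -0.0066 at resolution 1.0, 0.045 with each library clustered alone, -0.022 with Kcn genes in the clustering, 0.19 at 8000 to 20000 UMIs, -0.014 in female and -0.033 in male cells, -0.10 with free RNA subtracted, -0.30 in the Tmem100 Ly6c1 and 0.030 in the Fmod Ccn5 cluster. In macrophage or monocyte-like cells it was 0.17 without doublet removal, 0.053 at resolution 1.0 and 0.0027 at 8000 to 20000 UMIs. Of 554 values for single members under alternatives, 438 lay within the counting interval of the reported value, 115 lay outside it, and 1 reversed a difference counted in the report, Kcnab1 in male macrophage or monocyte-like cells (-0.47). The cause of these changes was not tested. The lower minimum compares more genes, and the subsets hold fewer cells. The naming rule left a fibroblast cluster of 835 cells out of its class at resolution 1.0 and one of 1677 with Kcn genes in the clustering. With each library clustered alone it left out one of 206 wild-type cells and one of 1178 knock-in cells. Neither the fibroblast-like nor the SMC-like cells were thus matched between the libraries in that setting. Leaving out the richest cell, the Hox split, the single fibroblast clusters and the Sncg Timp4 cluster counted with SMC-like cells were chosen after seeing the data. Wild-type groups held 236 SMC-like, 64 endothelial-like, 51 Sncg Timp4 and 57 Chrm3 Chrm2 cells, which limits the counts there.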

Other observations

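A group of 8 wild-type cells carried mesothelial markers and had no counterpart in the knock-in library. Kcnd2, a Kv4 pore, was at 440 CPM in these cells, but 73 of its 113 UMIs came from 1 cell. Kcnd3 was at 148 CPM, from 38 UMIs. The group is too small to compare with any other.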
